A study of Mus musculus with 4 samples.

Results

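The genes described here are 10 transcripts of intraepithelial lymphocytes: the granule genes Gzma, Gzmb and Nkg7, the chemokine gene Ccl5, the T cell receptor complex genes Cd3e and Cd3g, the co-receptor gene Cd8a, and the surface receptor genes Cd7, Itgae and Klrd1. They were taken by name from 19938 genes measured on 4 Affymetrix arrays, and each of the 10 had 1 probe set with its own symbol. The list was chosen with earlier results of these data known, so its counts beside all genes are a description and not a test. The arrays carried RNA of small intestinal crypt cells from adult mice, sorted by flow cytometry on an EGFP reporter of Lgr5, a stem cell receptor. The Zip7 KO mice were Zip7flox/flox, with 2 floxed copies of Slc39a7 (Zip7), a zinc transporter of the endoplasmic reticulum and Golgi. The control mice were Zip7flox/+, with 1 floxed copy. Mice of either genotype carried villin-CreERT2 and Lgr5-EGFP-ires-CreERT2 and were given tamoxifen for 2 days, so the controls were exposed to the same recombinase and are expected to have lost 1 copy. Each genotype gave a fraction labelled Lgr5-Hi and a fraction labelled Lgr5-Med (Lgr5-Mid in the sample titles), which makes 4 groups of 1 array each.

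Intraepithelial lymphocytes sit between the epithelial cells of the gut, above the basement membrane. Most are T cells of the CD8 type, many of them with the gamma delta receptor, and they hold granzymes in cytoplasmic granules ready for release into a target cell. They are kept in place by the integrin CD103, whose alpha chain Itgae encodes and which binds E-cadherin on epithelial cells. The villin and Lgr5 genes that drive the recombinase here are active in the epithelium, and the labels give all 4 samples as intestinal epithelial cells. How many animals contributed to an array is not in the labels.

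With 1 array per group there was no spread between animals, no difference was tested, and precision is limited by having so few arrays. Values are on a log2 scale, and a difference of 1 is 2-fold. Smell, pheromone and trace amine receptor genes, 1207 in all, served as a background that gut cells should not transcribe. Their percentile 95 was taken as the floor of an array and lay at 6.18 and 6.16 on the Zip7 KO arrays labelled Lgr5-Hi and Lgr5-Med and at 6.25 and 6.10 on the control arrays with these labels. Genes that exceeded it on either array of a comparison were counted in that comparison. Slc39a7 itself was at 9.02 and 8.22 in the Zip7 KO arrays labelled Lgr5-Hi and Lgr5-Med, against 8.92 and 8.61 in the controls, and the position of its probes relative to the floxed part is unknown here, so these values do not check the deletion. Lgr5 ran against the fraction labels, at 7.93 under Lgr5-Hi and 11.24 under Lgr5-Med in Zip7 KO and at 7.79 and 10.97 in controls, so every direction between fractions is that of the labels as given. Sex differed with genotype: Xist, which coats the silenced X chromosome of female cells, had values of 5.59 and 5.43 in the Zip7 KO arrays and of 11.64 and 11.84 in the control arrays, and the Y-linked gene Eif2s3y was at 8.12 and 8.11 in Zip7 KO and at 4.10 and 4.24 in controls. Genotype and sex cannot be told apart in these arrays.

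The first question was how the lymphocyte genes differed between Zip7 KO and control cells. All 10 had lower values in the Zip7 KO array than in the control array under either label, although Klrd1 was below the floor on every array. Itgae was below it on both arrays labelled Lgr5-Hi, and Cd3g and Itgae were below it on both Zip7 KO arrays. Without members below the floor on both arrays, 8 of 8 under Lgr5-Hi and 9 of 9 under Lgr5-Med were lower. Of all genes in these comparisons 45% and 55.8% were lower at any size. The granule genes, Ccl5 and Cd7 differed at least 2-fold under both labels, and Cd3e and Cd8a less than that. Cd3g differed less than 2-fold in deposited values. Its Zip7 KO values were below the floor, so the size of its difference is not known. Of the 8 members in the comparison under the label Lgr5-Hi 5 were at least 2-fold lower, where 0.234% of all 11988 genes were. Under Lgr5-Med 5 of 9 members were, where 0.621% of 12243 genes were. The median over the 10 members was -1.01 and -1.14 under these labels, beside 0.02 and -0.03 over all genes in the comparisons.

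**Figure D1:**
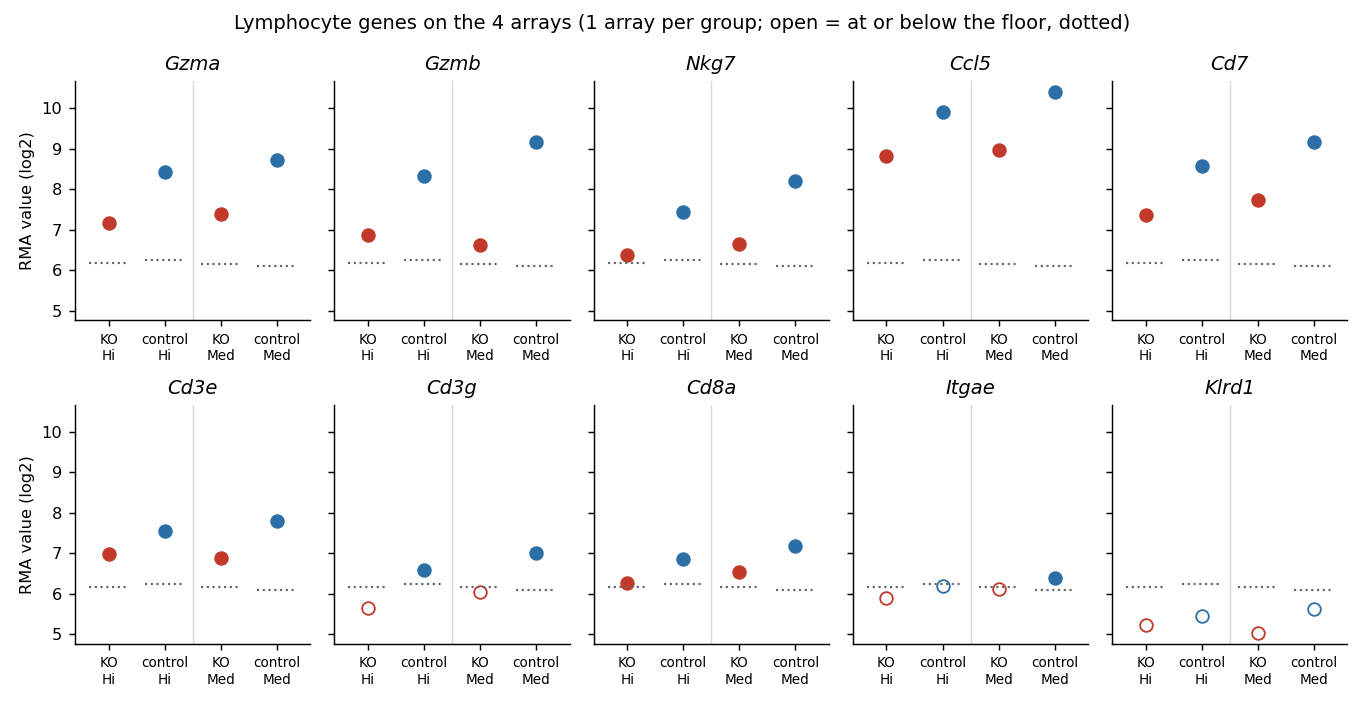
RMA values (log2) of the 10 lymphocyte genes on the 4 arrays, Zip7 KO in red and control in blue, with the floor of each array dotted and open points at or below it. In each panel the red points lie below both blue points, and Klrd1 lies below the floor throughout.

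Gzmb encodes granzyme B, a serine protease that cleaves after aspartate and starts caspases in the target cell. Its probe set, 10420308, was at 6.86 in the Zip7 KO array labelled Lgr5-Hi, against 8.33 in its control, and at 6.61 in the Zip7 KO array labelled Lgr5-Med, against 9.16 in its control. The Zip7 KO arrays were close to the floor and the control arrays well above it. The differences were -1.47 and -2.55, which leaves 36.0% and 17.1% of the control level. Among all genes in the comparison the difference ranked 10th from the lowest under Lgr5-Hi and 3rd under Lgr5-Med.

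Gzma encodes granzyme A, a protease of the same granules that cleaves after basic residues. Its values were 7.17 in Zip7 KO against 8.42 in control under the label Lgr5-Hi, and 7.39 against 8.72 under Lgr5-Med. The differences of -1.25 and -1.33 were alike in size, unlike those of Gzmb. Nkg7, a membrane protein of cytotoxic granules needed for their release, was at 6.37 against 7.44 and at 6.65 against 8.20 in the same order, with differences of -1.07 and -1.55. Its value of 6.37 in the Zip7 KO array labelled Lgr5-Hi was close to the floor of 6.18. Taken over both labels, the 2 Zip7 KO arrays lay below the 2 control arrays for each granule gene, as they did for 15.9% of 12404 genes. The lower control value exceeded the higher Zip7 KO value by 1.47 for Gzmb, 1.03 for Gzma and 0.79 for Nkg7. A gap of at least 0.5 was held by 0.487% of the 11293 genes above the floor on all 4 arrays.

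The promoters of the granule genes are shown because these genes differed together and because RUNX and T-box factors are known regulators of cytotoxic genes. The RefSeq promoter table (GRCm38.p6) held windows of 6 of the 10 members, Gzma, Gzmb, Nkg7, Cd3e, Cd3g and Cd8a. The stretch of 250 bases before the transcription start was searched on both strands for the RUNX core TGTGGT, the T-box core GGTGTGA and the ETS core GGAAGT. Capitals mark the RUNX core, read as TGTGGT or, on the other strand, as ACCACA.
Gzma: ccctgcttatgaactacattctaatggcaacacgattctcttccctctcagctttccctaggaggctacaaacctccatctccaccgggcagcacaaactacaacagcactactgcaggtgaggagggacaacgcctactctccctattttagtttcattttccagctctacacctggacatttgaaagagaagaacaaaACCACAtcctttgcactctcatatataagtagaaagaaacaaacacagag
Gzmb: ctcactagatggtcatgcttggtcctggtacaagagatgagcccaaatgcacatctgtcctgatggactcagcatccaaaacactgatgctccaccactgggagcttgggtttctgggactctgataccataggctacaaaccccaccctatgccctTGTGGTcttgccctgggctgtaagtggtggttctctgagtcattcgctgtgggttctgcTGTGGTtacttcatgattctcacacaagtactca
Nkg7: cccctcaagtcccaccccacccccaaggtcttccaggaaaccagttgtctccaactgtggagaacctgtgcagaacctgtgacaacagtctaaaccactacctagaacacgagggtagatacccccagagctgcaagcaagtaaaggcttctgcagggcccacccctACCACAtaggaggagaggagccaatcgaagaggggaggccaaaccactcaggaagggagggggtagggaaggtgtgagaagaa
They lie at chr13:113100982-113101231 and chr14:56262335-56262584 on the minus strand and at chr7:43436888-43437137 on the plus strand, and are written in the direction of the gene. Counted back from the base before the start as -1, the core begins at -50 in Gzma, at -93 and -34 in Gzmb and at -83 in Nkg7. The other 3 windows held no RUNX core, and 14.0% of the 32851 windows in the table held at least 1. The T-box core was found at -13 of Nkg7 and in no other member's window (3.33% of all windows), and the ETS core at -18 of Cd3e alone (19.7% of all windows). These matches of letters are a description and no evidence of binding. The bulk values of Runx3 and Runx1, the RUNX factors most used by lymphocytes, differed little by genotype. Runx3 was at 6.60 and 6.43 in the Zip7 KO arrays labelled Lgr5-Hi and Lgr5-Med and at 6.57 and 6.65 in the controls. Runx1 was at 7.52 and 7.70 against 7.67 and 7.75 in the same order. Runx3 was close to the floor on every array, which limits what its values can show. In bulk RNA the cells that gave these values are unknown. The part of RUNX factors in the lymphocyte result was not tested.

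Ccl5 encodes RANTES, a chemokine that cytotoxic T cells store and release and that other cells can also make. Its probe set, 10389207, was at 8.83 in Zip7 KO against 9.92 in control under the label Lgr5-Hi, and at 8.97 against 10.41 under Lgr5-Med. It was far above the floor on all 4 arrays, and the differences were -1.08 and -1.44. Cd7, an immunoglobulin-type receptor of T and natural killer cells, was at 7.35 against 8.58 and at 7.75 against 9.15, with differences of -1.23 and -1.41. For either gene the 2 Zip7 KO arrays lay below the 2 control arrays, as for 15.9% of 12404 genes. The distance between the nearest values was 0.95 for Ccl5 and 0.83 for Cd7. Under the labels Lgr5-Hi and Lgr5-Med the Zip7 KO level was 47.1% and 36.9% of control for Ccl5, 42.8% and 37.6% for Cd7, 42.0% and 39.8% for Gzma and 47.7% and 34.1% for Nkg7. Counted from the lowest difference of all genes, the 5 genes at least 2-fold lower held ranks 10 to 27 under Lgr5-Hi and ranks 3 to 37 under Lgr5-Med.

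The invariant chains of the T cell receptor and its co-receptor differed less in deposited values. Cd3e, the epsilon chain of the CD3 complex, was at 6.98 in Zip7 KO against 7.57 in control under Lgr5-Hi and at 6.87 against 7.80 under Lgr5-Med, which gives differences of -0.59 and -0.93. Cd8a, the alpha chain of CD8, which also pairs with itself on intraepithelial lymphocytes, was at 6.27 against 6.87 and at 6.55 against 7.18, with differences of -0.59 and -0.63. Both stayed above the floor on every array, Cd8a only just so in the Zip7 KO array labelled Lgr5-Hi. Cd3g, the gamma chain of CD3, was below the floor in Zip7 KO, at 5.66 against 6.60 and at 6.06 against 7.01 in control. Set against the floor it was at least 1.34-fold and 1.80-fold lower in Zip7 KO, and the deposited values differed by -0.94 and -0.96. At a smaller fold of 1.5, which is 0.585 on the log2 scale, Cd3e, Cd3g and Cd8a joined the 5 genes above in the deposited values, giving 8 of 8 members under Lgr5-Hi, where 0.926% of all genes passed, and 8 of 9 under Lgr5-Med, where 2.1% did. Under Lgr5-Hi Cd3e and Cd8a did not keep this fold under any of the 3 other scalings run, with differences of -0.54 to -0.58 and of -0.53 to -0.54, which left 6 members. The bound for Cd3g against the floor does not reach it there either. Under Lgr5-Med Cd8a missed it narrowly after quantile normalisation, at -0.584.

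The genes of tissue retention and of the natural killer receptor were at the edge of detection. Itgae was at 5.89 against 6.21 under Lgr5-Hi, both below the floor, and at 6.11 in Zip7 KO against 6.38 in control under Lgr5-Med, where only the control value was above it. It was there at least 1.17-fold lower in Zip7 KO. Klrd1, which encodes CD94, the partner chain of NKG2 receptors, was at 5.23 and 5.04 in the Zip7 KO arrays labelled Lgr5-Hi and Lgr5-Med and at 5.45 and 5.62 in the control arrays, all below the floor, so no difference is drawn from it.

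**Figure D2:**
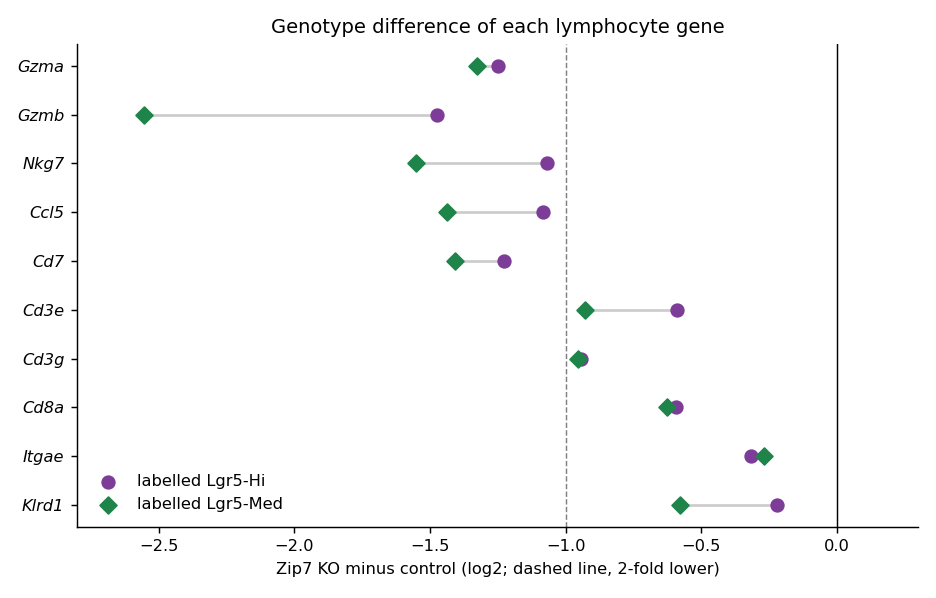
Difference between Zip7 KO and control (log2) for each lymphocyte gene under the label Lgr5-Hi (circles) and Lgr5-Med (diamonds), with the 2-fold line dashed. Gzma, Gzmb, Nkg7, Ccl5 and Cd7 lie beyond the 2-fold line under both labels, and Gzmb has the widest distance between the labels.

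The 2 labels can be read side by side, since they used different arrays, although the labels do not say whether they used different mice. Both Zip7 KO arrays were below both control arrays for all 9 members above the floor on any array, where 15.9% of 12404 genes had this pattern. Cd3g and Itgae were among these 9 through control arrays alone. Of the 7 members above the floor on all 4 arrays, 6 had a gap of at least 0.5 between the nearest values, where 0.487% of 11293 such genes had one, and Cd8a was the exception. The genotype difference was less negative under Lgr5-Hi than under Lgr5-Med by 1.08 for Gzmb, 0.48 for Nkg7, 0.35 for Ccl5, 0.34 for Cd3e, 0.18 for Cd7 and 0.08 for Gzma. For Cd8a this distance was 0.03. None is given for Cd3g and Itgae, whose Zip7 KO values were below the floor. These distances were not tested.

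**Figure D3:**
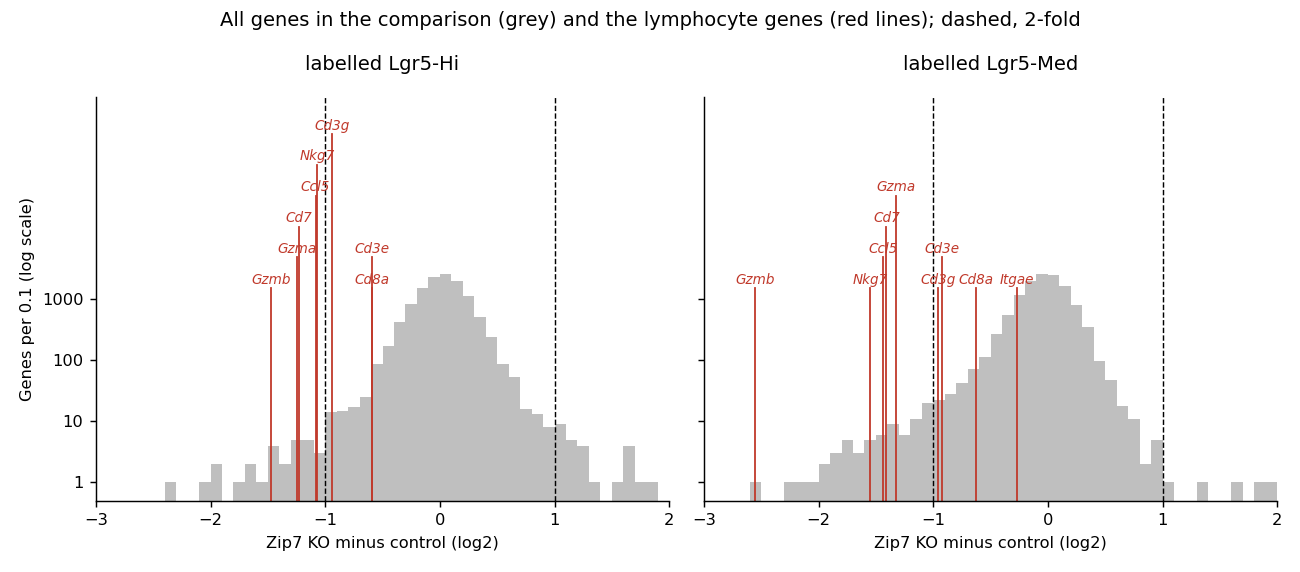
Number of genes per step of 0.1 (log scale) by their difference between Zip7 KO and control (log2), with red lines for the lymphocyte genes in the comparison and dashed lines at 2-fold. The lymphocyte genes lie on the lower side under both labels, with Gzmb furthest out, and a few genes beyond the axis range, among them Xist and Eif2s3y, are not drawn.

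Other genes of lymphocytes gave a narrower picture, since most were not above the floor. Ptprc, which encodes the pan-leukocyte antigen CD45, was at 5.96 and 6.04 in the Zip7 KO arrays labelled Lgr5-Hi and Lgr5-Med, below the floor, and at 6.44 and 6.53 in the controls, above it. Of the 18 pan-leukocyte genes measured, Ptprc included, 7 and 9 were above the floor in the Zip7 KO arrays and 10 and 14 in the control arrays. Their median difference was -0.22 under Lgr5-Hi and -0.15 under Lgr5-Med, and 0 of them was at least 2-fold lower. Laptm5, a lysosomal protein of leukocytes, was at -0.47 or lower and at -0.61, as Zip7 KO minus control under Lgr5-Hi and Lgr5-Med. Of this list 9 of 10 genes were below 0 under Lgr5-Hi, where 45% of all genes were, and 12 of 14 under Lgr5-Med, where 55.8% were. Several of the 14 were above the floor in the control array alone, and with values below the floor set to the floor 9 of 10 and 10 of 14 were below 0, beside 45.7% and 55.1% of all genes.

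Genes of T cell receptor signalling were mostly not detected. Of 18 measured, 14 were below the floor on all arrays, among them Cd3d, the delta chain of CD3, the kinase gene Zap70 and the adaptor gene Lat. The list's medians over all 18 genes, most of them undetected, were -0.07 and -0.0045, and 0 genes differed 2-fold. Among genes above the floor on either array the median was 0.09 for 1 gene under Lgr5-Hi and -0.41 for 4 under Lgr5-Med. Most of these 4 passed through the control array alone. Cd8b1, the beta chain of CD8, was above the floor only in the control array labelled Lgr5-Med, at 5.85 in Zip7 KO against 6.31 in control. The same held for Cd6, a T cell surface receptor, at 5.83 against 6.20, and for the adaptor gene Lcp2, at 5.74 against 6.24. Cd247, the zeta chain of CD3, went the other way under Lgr5-Med, at 6.30 in Zip7 KO against 6.12 in control, both above the floor. Under Lgr5-Hi it was at 6.21 against 6.12, close to the floor on either array.

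Among the granule and effector genes 1 of 8 above the floor was at least 2-fold lower under either label. Of all genes 0.234% and 0.621% were this much lower under Lgr5-Hi and Lgr5-Med. The gene was Srgn, which encodes serglycin, the proteoglycan that packs granzymes in granules and that other blood cells make too. It was at 7.05 in Zip7 KO against 8.19 in control under Lgr5-Hi and at 7.48 against 8.86 under Lgr5-Med, with differences of -1.14 and -1.37. Ctsw, a cathepsin of cytotoxic cells, differed by -0.23 and -0.42 or lower, with its Zip7 KO values below the floor. Perforin, Prf1, was at 6.39 and 6.33 in the Zip7 KO arrays and 6.51 and 6.35 in the control arrays, close to the floor in all. The inflammatory cytokine gene Tnf differed the other way under Lgr5-Med, at 0.41. In these 2 comparisons 0.25% and 0.0653% of all genes were at least 2-fold higher, and none of the lymphocyte genes was.

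The natural killer receptors were below the floor on all arrays in 14 of 18 cases. Fcer1g, the signalling chain of Fc and natural killer receptors that myeloid cells also use, was at 5.63 against 6.21 under Lgr5-Hi and at 5.71 against 6.74 under Lgr5-Med, each time given as Zip7 KO against control. It was, in deposited values, the only gene of the list at least 2-fold lower, and only under Lgr5-Med, where 0.621% of all genes were. Only the control value under Lgr5-Med was above the floor, and against the floor the difference there was -0.58 or lower. Among receptors of residence and cytokines Il2rb, the beta chain through which IL-15 sustains intraepithelial lymphocytes, was above the floor only in the control array labelled Lgr5-Med, at 5.50 in Zip7 KO against 6.39 in control. The chemokine receptor gene Ccr9, used in homing to the small intestine, was below the floor on all arrays. Of 14 lymphocyte transcription factors 8 were above the floor on some array and 0 differed 2-fold. Zbtb16 (PLZF), a factor of innate-like T cells, was at 6.46 in Zip7 KO against 7.25 in control under Lgr5-Med, and at 6.28 against 6.47 under Lgr5-Hi.

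**Figure D4:**
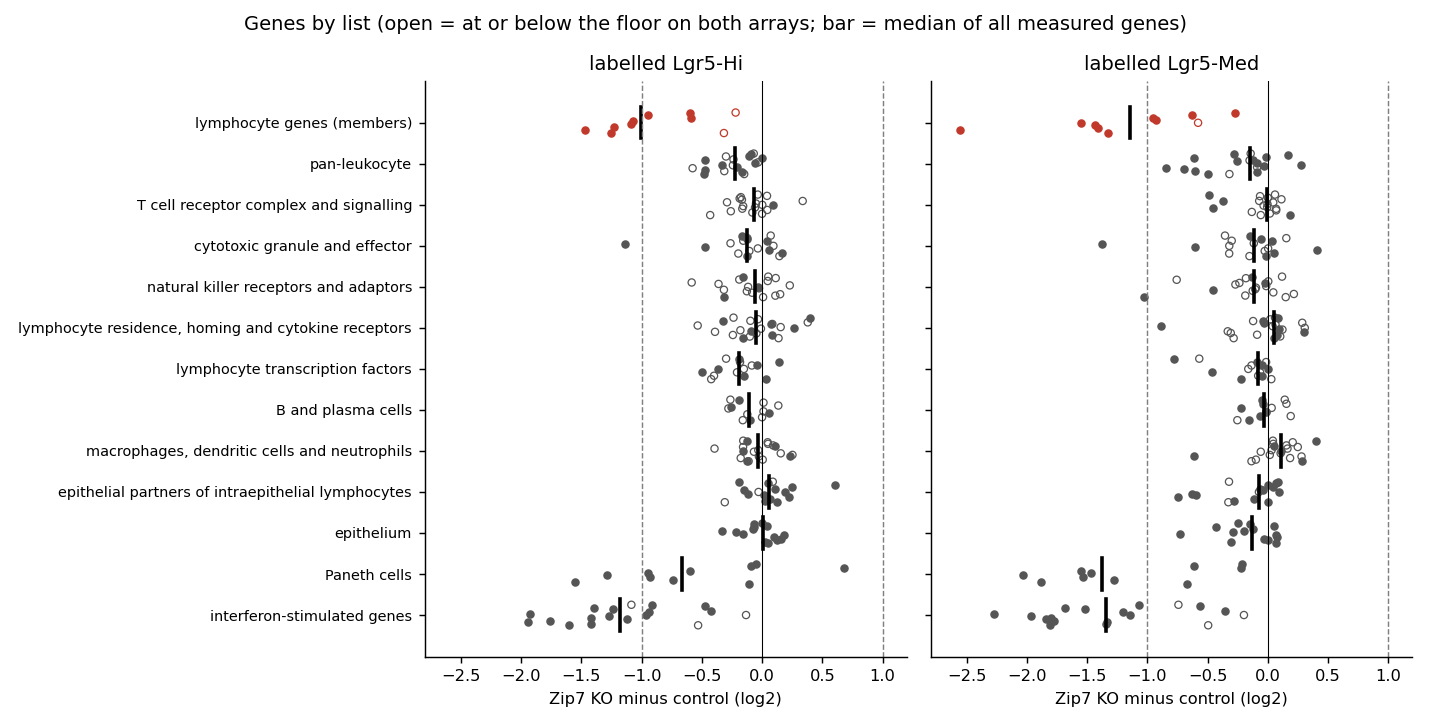
Difference between Zip7 KO and control (log2) for each gene of 13 lists under the 2 fraction labels, with open points for genes at or below the floor on both arrays and bars at the median of all measured genes. The lymphocyte genes, Paneth cell genes and interferon-stimulated genes have medians well below 0, and the medians of the other lists lie between -0.22 and 0.11. In several of these other lists most genes were below the floor, so their medians mostly describe undetected genes.

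The epithelial side of the contact was measured on the same arrays. Cdh1, the E-cadherin bound by CD103, was at 12.24 and 12.19 in the Zip7 KO arrays labelled Lgr5-Hi and Lgr5-Med and at 12.12 and 12.19 in the controls. Of 13 epithelial partner genes above the floor 0 differed 2-fold under either label. Btnl1 and Btnl2, butyrophilin-like genes whose family in mouse gut supports gamma delta intraepithelial lymphocytes, differed by 0.02 and -0.12 under Lgr5-Hi and by -0.60 and -0.63 under Lgr5-Med. Il18 likewise differed by 0.22 and -0.75, while Il15, whose product sustains these lymphocytes, differed by 0.02 and -0.28 and the chemokine gene Ccl25, which draws lymphocytes to the small intestine, by 0.19 and 0.09. Pvr, a ligand of lymphocyte receptors such as CD226 and CD96, was higher in Zip7 KO under Lgr5-Hi, by a difference of 0.60, and was at 8.76 in either genotype under Lgr5-Med. The 14 epithelial identity genes had medians of 0.01 and -0.13, with Epcam at 0.05 and 0.07.

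Marker lists of other immune cells held no gene at least 2-fold different between the genotypes. The 12 B and plasma cell genes had medians of -0.11 and -0.03, the 19 macrophage, dendritic cell and neutrophil genes -0.03 and 0.11, and the 10 mast cell genes 0.02 and 0.03. Above the floor on some array were 6, 6 and 2 genes of these lists. Their summed linear levels, in the Zip7 KO arrays labelled Lgr5-Hi and Lgr5-Med against the controls, were 696 and 699 against 741 and 730 for the B cell list, 2542 and 1971 against 2627 and 2144 for the myeloid list and 521 and 472 against 584 and 509 for the mast cell list. These sums cover all measured genes of a list, those below the floor included, so part of each is background. They also weigh most on the highest genes, Lyz2 and Cd68 in the myeloid list and Kit in the mast cell list. Under Lgr5-Hi and Lgr5-Med the genotype difference was -0.10 and -0.16 for Cd79b, a B cell receptor chain, 0.23 and 0.29 for the lysosomal gene Cd68, -0.16 and -0.62 for the lysozyme gene Lyz2 and -0.41 and -0.33 for the growth factor receptor gene Kit, all of them above the floor on all 4 arrays. The defining genes Ms4a1 and Cd79a of B cells, Csf1r and Adgre1 of macrophages, and Cpa3 and Mcpt1 of mast cells were below the floor on all 4 arrays. In bulk RNA fewer lymphocytes and less of these transcripts per lymphocyte cannot be told apart.

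Other gene groups moved with the lymphocyte genes. All 15 interferon-stimulated genes above the floor on any array were lower in Zip7 KO under either label. In deposited values 10 and 13 of them were at least 2-fold lower, beside 0.234% and 0.621% of all genes. Medians were -1.18 and -1.34 over the 18 measured. Some of the 15 were above the floor in control arrays alone, which favours a lower value in Zip7 KO. With values below the floor set to the floor all 15 stayed below 0, where 45.7% and 55.1% of all genes were. The summed linear level of the 18 genes, background included, was 2378 and 1995 in the Zip7 KO arrays against 5470 and 5242 in the control arrays. Of the 10 Paneth cell genes 2 and 6 were at least 2-fold lower, with medians of -0.67 and -1.38 and summed levels of 45100 and 23603 in Zip7 KO against 57437 and 41053 in controls, none of them below the floor. Their part in the lymphocyte result, and that of the difference in sex, was not tested.

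The genes with the pattern most like that of the lymphocyte genes were found by distance. For each of 12395 other genes above the floor on some array, the 4 values were centred on their mean and compared with the mean centred profile of the 10 members, which was -0.58 and -0.44 in the Zip7 KO arrays labelled Lgr5-Hi and Lgr5-Med and 0.30 and 0.72 in the control arrays. The 10 nearest genes had root mean square distances over the 4 arrays of 0.04 to 0.14, where the median gene had 0.54. In order they were Slc34a2, a phosphate transporter, Xaf1, Cubn, which encodes the uptake receptor cubilin, Rgs1, a regulator of G protein signalling, Ifi27l2a, Irgm1, Snora20, Fcer1g, Gbp7 and Parp14. Rgs1, Ifi27l2a and Fcer1g were above the floor in control arrays alone. The member profile also includes values below the floor, such as those of Klrd1. Slc34a2, the nearest, was at 8.51 and 8.55 in Zip7 KO and at 9.35 and 9.74 in controls. Among the members themselves the distance ran between 0.10 for Cd3g and 0.53 for Gzmb, and 4 arrays allow many genes a like profile.

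The second question was how the fractions differed within a genotype. In controls all 9 members in the comparison were lower in the array labelled Lgr5-Hi, where 56.7% of 12248 genes were, and the median over the 10 members was -0.36 beside -0.04 over all genes. Itgae entered this comparison through the array labelled Lgr5-Med alone. In Zip7 KO 5 of 7 members in the comparison were lower under Lgr5-Hi, where 50.7% of 12114 genes were, with a median of -0.22 over the 10 members beside -0.0045. That median includes Cd3g, Itgae and Klrd1, which were below the floor on both Zip7 KO arrays, and was -0.058 with values below the floor set to the floor. No member differed 2-fold between the fractions in either genotype, where 2.63% of genes did in Zip7 KO and 1.19% in controls, counting both directions.

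Gzmb had the widest fraction difference in controls, at 8.33 under Lgr5-Hi against 9.16 under Lgr5-Med, or -0.83. In Zip7 KO it ran the other way, at 6.86 against 6.61, or 0.25. Nkg7 differed by -0.28 in Zip7 KO and by -0.76 in controls, and Cd7 by -0.39 and -0.58. Cd3e differed by 0.10 in Zip7 KO and by -0.24 in controls. The remaining members above the floor in the 2 comparisons, Gzma, Ccl5 and Cd8a, were lower under Lgr5-Hi in both genotypes, by differences of -0.14 to -0.49. Ptprc differed by -0.09 in controls and was below the floor on both Zip7 KO arrays.

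**Figure D5:**
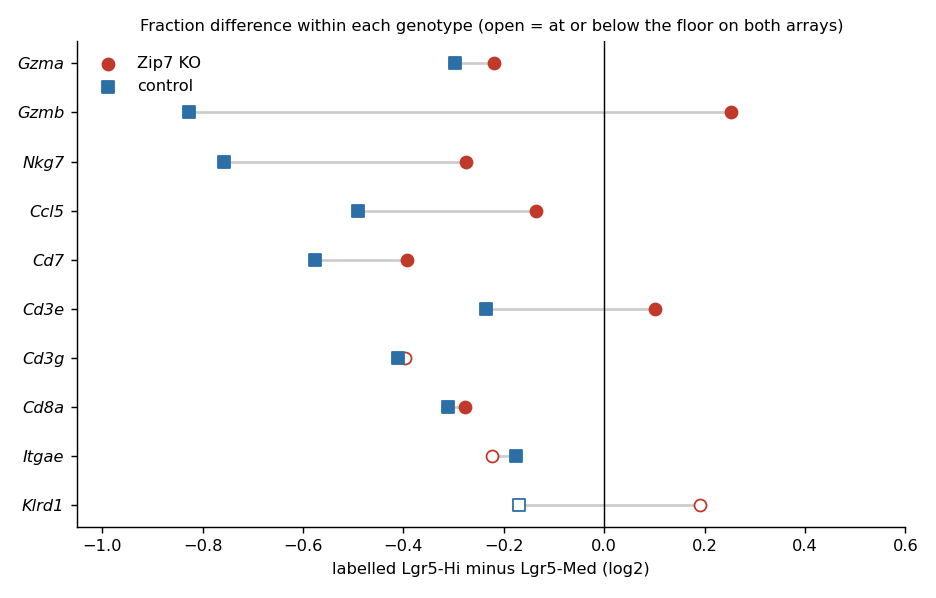
Difference between the arrays labelled Lgr5-Hi and Lgr5-Med (log2) for each lymphocyte gene in Zip7 KO (circles) and control (squares), with open symbols where both arrays were at or below the floor. The control symbols lie below 0 for all genes, and the Zip7 KO symbols of Gzmb, Cd3e and Klrd1 lie above it.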

How the data were processed

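RNA of sorted crypt cells was hybridised to 4 arrays, 1 per group. The authors summarised each probe set with RMA, per the submitters' processing notes, and deposited the result on a log2 scale. Its software, its version and the set of arrays normalised jointly are not stated in the notes. The log2 scale was read from the range of 3.08 to 14.6. Of 35557 probe sets 21789 had 1 symbol in the platform annotation, 1621 had several and 12147 were not listed. A gene took its probe set with the highest mean, and 21698 probe sets matched RefSeq gene IDs (GRCm38.p6). Differences, medians and counts past 2-fold were computed with Python 3.11.15 and pandas 2.3.3, with no p-value, and the counting was tested on simulated data. All 10 members were named, besides check genes and the nearest profiles. From each list the rule allowed up to 3 genes furthest below 0 and the 1 furthest above it in the mean genotype difference, and not all of these are printed. A few list genes outside this rule (Runx1, Runx3, Prf1, Cd3d, Zap70, Lat, Ccr9, Il15, Ccl25 and the B cell, macrophage and mast cell genes at the floor) were named after their values were seen, and the gap of 0.5 and the promoters printed were chosen then too. Members and lists were chosen with earlier results of these data known. The alternatives were 3 scalings, the probe set rule, 2 treatments of the floor and a fold of 1.5.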

Additional observations from a re-analysis of the deposited data

Results flagged for a closer look

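The fraction difference (labelled Lgr5-Hi minus Lgr5-Med) of 2 members had opposite signs in the 2 genotypes. For Gzmb it was 0.25 in Zip7 KO and -0.83 in controls, a distance of 1.08. For Cd3e it was 0.10 in Zip7 KO and -0.24 in controls, a distance of 0.34. Each rests on 4 arrays with 1 per group, and the distances were not tested.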

How the results depend on the processing

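The member medians and the counts past the fold in the 4 comparisons kept their direction under every alternative run, and centring, quantile normalisation, the loess correction, averaging of probe sets and the floor at percentile 99 changed none of them by 0.1 or by 1.5 times. With values below the floor set to the floor, the member median became -0.83 for genotype under Lgr5-Hi and -0.058 between fractions in Zip7 KO, by the construction of that setting. With a fold of 1.5, 8 members were lower in Zip7 KO under either label, and 2 differed between fractions in controls. The share of all genes past 1.5-fold between fractions was not computed, so no reading is given to the count of 2. That smaller fold was also run under the other settings, a choice made after seeing the data: under Lgr5-Hi 6 members passed with each of the 3 scalings, without Cd3e and Cd8a, and 7 with values set to the floor or the floor at percentile 99, and under Lgr5-Med 7 passed after quantile normalisation, without Cd8a. Setting values to the floor also turned the sign for Klrd1 (0.058 for genotype under Lgr5-Med and 0.14 between control fractions) and for Cd3g and Itgae between Zip7 KO fractions (0.020 each), all of them cases in which the members concerned were at the floor. Signal over background limits Itgae and Klrd1, and Cd3g in Zip7 KO. No paired analysis was possible because the groups compared share fewer than 2 replicate numbers, and with 1 array per group none was left out. A model with genotype and fraction label as additive terms could be fitted to the 4 arrays, taking unequal genotype differences as error, but was left out.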
